A study of Homo sapiens with 6 samples.

Results

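The genes described here are 37 established targets of the transcription factor p53, chosen by symbol from a list of genes that p53 binds and induces in arrest, death, repair and feedback. The choice was made with earlier results of these data known. All 37 had a row among the 17929 genes of the deposited table, and all 37 were expressed highly enough to be tested with 17768 genes in all. The samples were 6 RNA-seq libraries of human embryonic stem cells of 2 established lines, HES2 and H9. Cells were infected with virus carrying a short hairpin RNA and collected on day 4. In each line, 1 library had the DDX18 hairpin shDDX18#3, 1 had the DDX18 hairpin shDDX18#1 and 1 had shLuc, the luciferase control hairpin, which gives 4 knockdown libraries and 2 shLuc libraries. DDX18 is a nucleolar DEAD-box RNA helicase needed to build ribosomes, and the series was designed to ask what it does in keeping human embryonic stem cell identity. All cells had been grown on irradiated mouse embryonic fibroblasts. No hairpin has a repeat library within a line, and nothing in the labels says that the libraries came from separate cultures beyond the 2 lines, so the p-values below measure only the spread between these 6 libraries.

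p53 is kept scarce in unstressed cells by MDM2, a ubiquitin ligase that marks it for destruction and is itself a p53 target. When ribosome assembly fails or DNA is damaged, MDM2 is held back, p53 accumulates, and it switches on genes that stop the cell cycle, repair DNA, alter metabolism or start apoptosis. Human embryonic stem cells are known for a p53 response that leads readily to differentiation or death.

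p53 binds pairs of a symmetrical sequence of 10 bases, the p53 decamer. Promoter sequences of RefSeq on build GRCh38.p14, each reaching from 250 bases before to 50 bases after the gene's start, were found for 29 of the 37 genes. The decamer, which reads as the same motif on both strands, occurred in 4 of the 29 promoters (13.8%), against 1786 of 27305 promoters of all genes (6.54%). A pair of decamers with a spacer of up to 13 bases and up to 2 mismatches over both occurred in 1 of the 29 (3.45%), against 401 of all promoters (1.47%). These 4 sequences are shown because they are the members whose promoter letters match the factor that defines the list. Capitals mark the decamer, or the decamer pair in AEN, which has a spacer of 0 and 2 mismatches.
FDXR, chr17:74872995-74873015, minus strand: gggcaggagcGGGCTTGCCCt
AEN, chr15:88621296-88621335, plus strand: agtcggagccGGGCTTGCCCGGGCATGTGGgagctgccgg
PLK2, chr5:58460199-58460228, minus strand: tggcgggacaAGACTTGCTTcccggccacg
RPS27L, chr15:63157517-63157546, minus strand: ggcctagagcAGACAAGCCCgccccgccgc
The capitals begin 11 bases before the gene's start in FDXR, 34 before it in AEN, 132 before it in PLK2 and 59 before it in RPS27L. A match describes letters and is not a measured binding site, and many p53 sites lie outside so short a window. Of these 4 genes, FDXR, PLK2 and RPS27L rose after knockdown, and AEN, with the only pair, did not pass the test. Of all 37 genes 24 rose (64.9%), against 9.6% of all genes tested, and a link between a decamer and a rise was not tested.

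Each library held 2668179 to 4271741 reads on genes, recovered from the deposited values as described with the processing, and levels are given as CPM, counts per 1000000 reads on the authors' scale, on which 1 read is worth 0.224 to 0.408 CPM. DDX18 itself was 60.4 CPM in HES2 shDDX18#3, 39.3 in HES2 shDDX18#1, 47.3 in H9 shDDX18#3 and 19.2 in H9 shDDX18#1, against 161 CPM in HES2 shLuc and 153 CPM in H9 shLuc, so 12.6% to 37.6% of the transcript of the same line's shLuc was left. Its log2 fold change was -2.0 ± 0.35 (SE; limma adjusted p = 0.0109). All 15 embryonic stem cell markers were detected in all 6 libraries. In the same test 10 of them fell (66.7%) and 0 rose, against 6.26% and 9.6% of all genes. They took 0.461% to 0.650% of reads in knockdown libraries, against 0.822% to 0.936% in shLuc libraries. Of the 22 fibroblast markers, 13 rose (59.1%) and 0 fell, against 9.6% and 6.26% of all genes. Their summed level was 6570 to 48881 CPM in knockdown libraries, against 1912 to 4794 CPM in shLuc libraries. COL1A1 alone was 18386 CPM of the sum in H9 shDDX18#1. In bulk RNA, more or fewer cells of a type and more or less RNA per cell cannot be told apart. Reads were placed on the human build hg19. Whether some of them came from the mouse fibroblasts under the cells was not tested, for these markers or for the p53 targets.

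Knockdown of DDX18 went with higher transcripts of most p53 targets. Of the 37 genes, 24 rose, 0 fell and 13 did not pass the test (limma on log2(CPM + 1) with cell line as a block, Benjamini-Hochberg adjusted p under 0.05 over all genes). Over all 17768 genes tested, 9.6% rose and 6.26% fell. The 37 had been chosen with earlier results of these data known, so these shares are a description only. The median log2 fold change of the 37 was 1.20, against -0.018 over all genes, and single values ran between -0.28 and 3.30. In 26 of the 37 genes all 4 knockdown libraries lay above both shLuc libraries, which held for 19.8% of all genes. Against the shLuc library of the same line, 29 of the 37 were higher in all 4 knockdown libraries, against 25.8% of all genes. At least a 2-fold rise over the same line's shLuc on that log scale was seen in all 4 knockdown libraries for 14 of the 37, against 3.75% of all genes. In the authors' deposited table of their own comparison, 29 of the 37 are higher at a false discovery rate under 0.05 and 0 are lower, where 13.5% of all its genes are higher and 9.42% are lower. The 24 found here are among the 29.

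**Figure D1:**
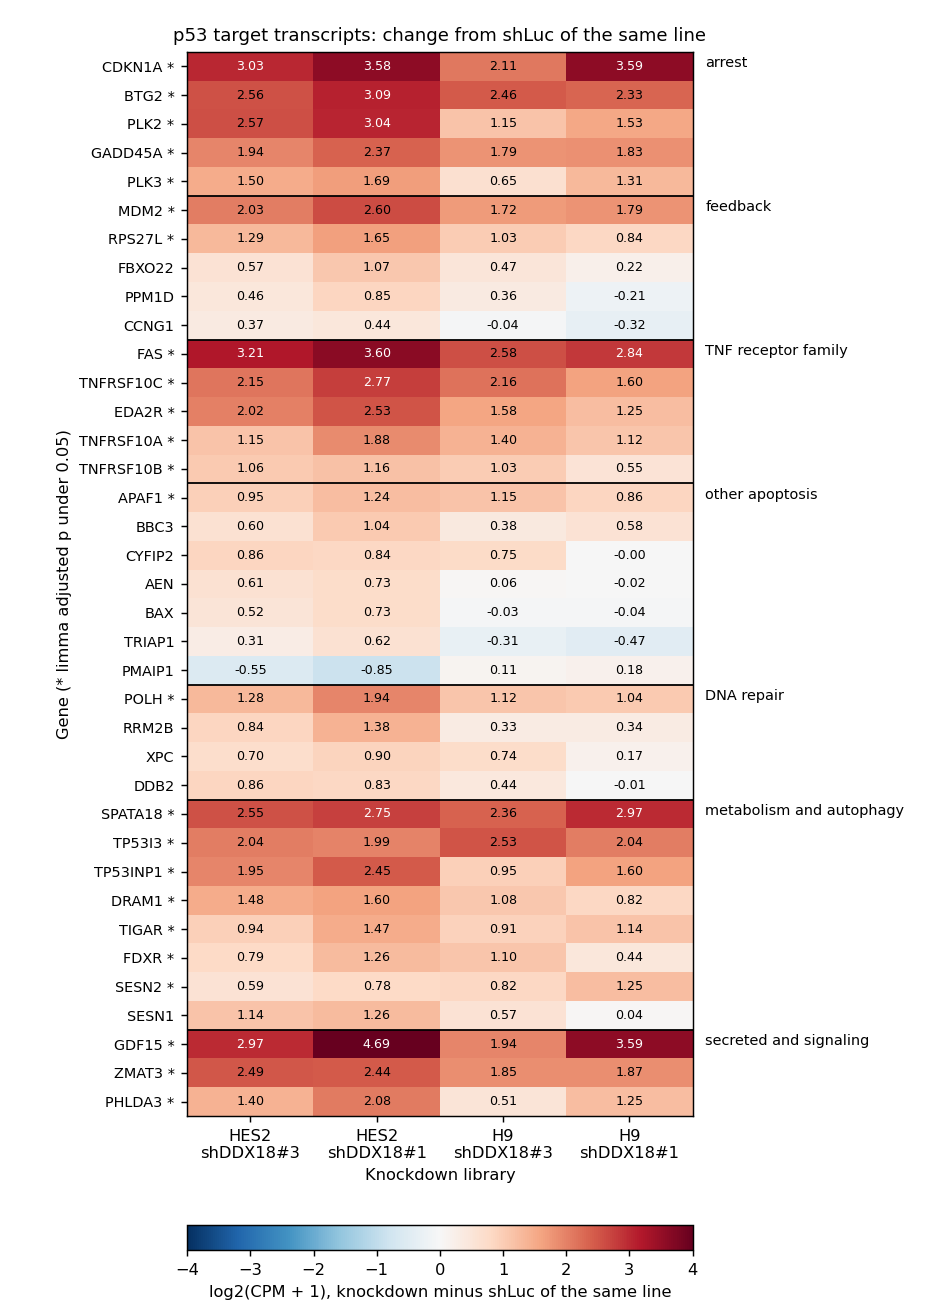
Change of each of the 37 p53 targets in each knockdown library, as log2(CPM + 1) minus that of the shLuc library of the same line. Rows are grouped by role, columns run from HES2 shDDX18#3 to H9 shDDX18#1, red is higher and blue is lower than shLuc, and an asterisk marks the 24 genes with a limma adjusted p under 0.05. The cell cycle arrest and TNF receptor family rows are red throughout, while BAX, TRIAP1, PMAIP1, AEN and CYFIP2 among the other apoptosis genes hold values of both signs, those of AEN and CYFIP2 below 0 being close to it.

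The rise was not equal across the roles that p53 targets play, and the genes were put into these roles after their values had been seen. All 5 genes of cell cycle arrest rose, with a median log2 fold change of 2.07. All 5 receptor genes of the tumor necrosis factor (TNF) receptor family rose, with a median of 1.84. So did all 3 genes grouped as secreted and signaling, with a median of 2.16. That group holds GDF15, PHLDA3 and ZMAT3. ZMAT3 is an RNA-binding protein that the group's name does not describe, and the median is its value. Of the 8 metabolism and autophagy genes 7 rose, with a median of 1.18. Of the 5 feedback genes 2 rose, with a median of 0.58, and of the 4 DNA repair genes 1 rose, with a median of 0.67. Of the 7 other apoptosis genes only APAF1 rose, and their median was 0.34. Differences between these roles were not tested.

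Among the arrest genes, CDKN1A encodes p21, the inhibitor of cyclin-dependent kinases through which p53 halts the cell cycle. CDKN1A was 275 CPM in HES2 shDDX18#3, 404 in HES2 shDDX18#1, 445 in H9 shDDX18#3 and 1238 in H9 shDDX18#1, against 32.9 CPM in HES2 shLuc and 102 CPM in H9 shLuc. All 4 knockdown libraries were above both shLuc libraries, and H9 shDDX18#1 stood highest. The log2 fold change was 3.08 ± 0.37 (SE; limma adjusted p = 0.0031), and the rise over the same line's shLuc was 8.38-fold, 12.3-fold, 4.36-fold and 12.1-fold in that order of libraries. BTG2, which restrains proliferation, was 136 CPM in HES2 shDDX18#3, 195 in HES2 shDDX18#1, 218 in H9 shDDX18#3 and 199 in H9 shDDX18#1, against 22.1 CPM in HES2 shLuc and 38.8 CPM in H9 shLuc. Its knockdown libraries lay close together and far above both shLuc libraries, with a log2 fold change of 2.61 ± 0.19 (limma adjusted p = 0.000998).

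PLK2, a polo-like kinase induced by p53, was 138 CPM in HES2 shDDX18#3, 191 in HES2 shDDX18#1, 163 in H9 shDDX18#3 and 213 in H9 shDDX18#1, against 22.4 CPM in HES2 shLuc and 73.1 CPM in H9 shLuc. The knockdown libraries of the 2 lines were alike in level, and the 2 shLuc libraries were not. The log2 fold change was 2.07 ± 0.31 (limma adjusted p = 0.0071). GADD45A, which binds PCNA and blocks entry into mitosis, was 78.2 CPM in HES2 shDDX18#3, 106 in HES2 shDDX18#1, 118 in H9 shDDX18#3 and 122 in H9 shDDX18#1, against 19.7 CPM in HES2 shLuc and 33.5 CPM in H9 shLuc. The groups did not overlap, and the log2 fold change was 1.98 ± 0.18 (limma adjusted p = 0.0017). PLK3, another polo-like kinase of the stress response, rose by a log2 fold change of 1.29 (limma adjusted p = 0.0153), also with no overlap.

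**Figure D2:**
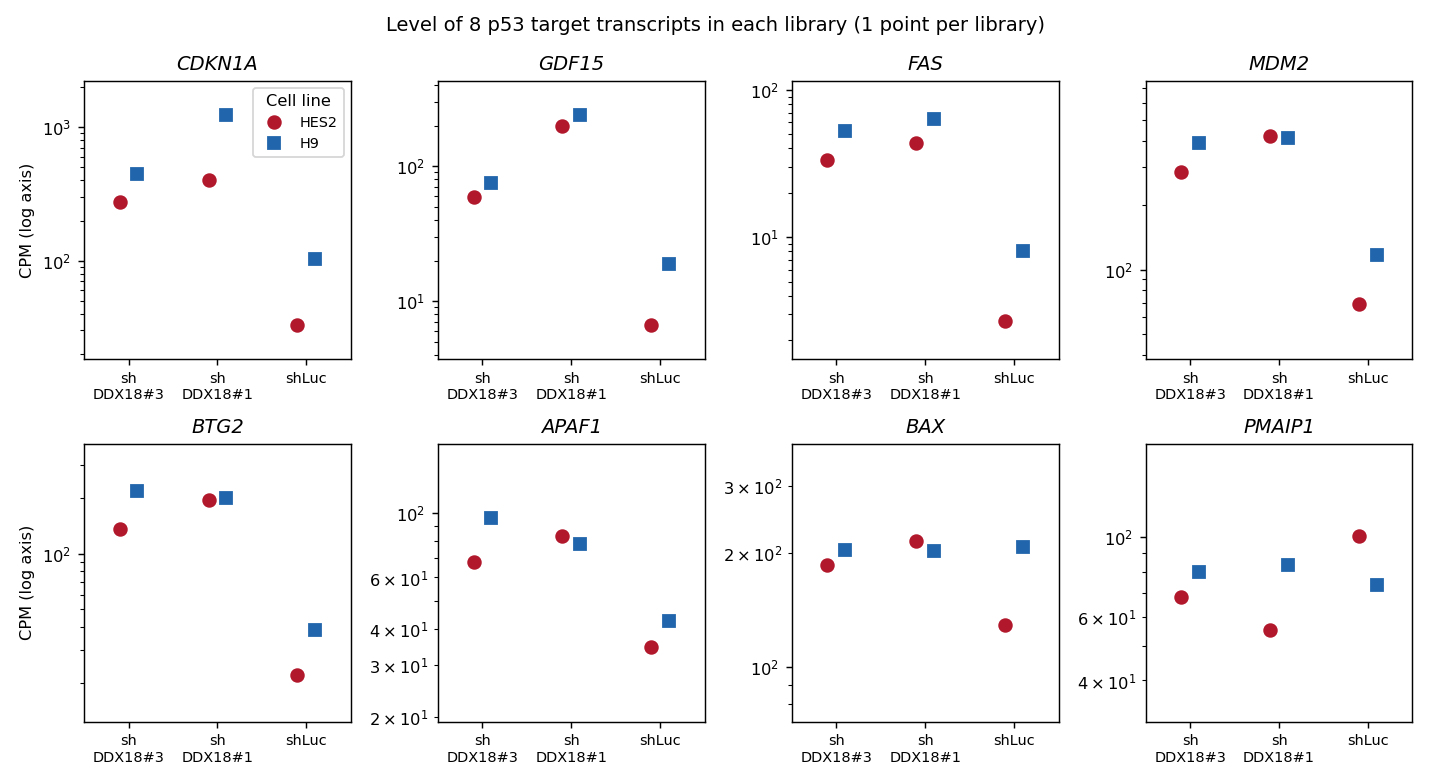
Level in CPM, on a log axis, of 8 p53 targets in each library, with shDDX18#3, shDDX18#1 and shLuc from left to right, circles for HES2 and squares for H9, and 1 point per library. CDKN1A, GDF15, FAS, MDM2, BTG2 and APAF1 have every knockdown point above both shLuc points, while BAX and PMAIP1 do not.

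Among the feedback genes, MDM2, the ligase that destroys p53, was 285 CPM in HES2 shDDX18#3, 421 in HES2 shDDX18#1, 388 in H9 shDDX18#3 and 410 in H9 shDDX18#1, against 68.9 CPM in HES2 shLuc and 117 CPM in H9 shLuc. The groups did not overlap, and the log2 fold change was 2.03 ± 0.20 (limma adjusted p = 0.0022). RPS27L, a ribosomal protein paralog that acts on the MDM2 and p53 loop, rose by 1.20 on the log2 scale (limma adjusted p = 0.0070). The other feedback genes did not pass. FBXO22, part of a ubiquitin ligase, had a log2 fold change of 0.58 (limma adjusted p = 0.0796), although all 4 of its knockdown libraries were above both shLuc libraries. PPM1D, the WIP1 phosphatase that shuts off p53 signaling, had 0.37 (limma adjusted p = 0.305), and cyclin G gene CCNG1 had 0.11 (limma adjusted p = 0.688). The last 2 had knockdown levels that overlapped those of shLuc.

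The TNF receptor family genes encode cell surface receptors, of which some start apoptosis when a ligand binds and others act as decoys. FAS, which encodes a death receptor, was 33.1 CPM in HES2 shDDX18#3, 43.8 in HES2 shDDX18#1, 52.8 in H9 shDDX18#3 and 63.7 in H9 shDDX18#1, against 2.68 CPM in HES2 shLuc and 8.03 CPM in H9 shLuc. It was scarce in both shLuc libraries and 6.58-fold to 16.3-fold higher than the same line's shLuc in the knockdown libraries, with a log2 fold change of 3.06 ± 0.24 (limma adjusted p = 0.0010). The exons of FAS share 380 of 4253 bases with ACTA2, a smooth muscle actin gene on the other strand, and ACTA2 rose by a log2 fold change of 4.08 (limma adjusted p = 0.000998). No label states that counting used strand, so reads on the shared bases cannot be told apart. TNFRSF10C, a decoy receptor for the death ligand TRAIL, was 60.1 CPM in HES2 shDDX18#3, 93.0 in HES2 shDDX18#1, 90.1 in H9 shDDX18#3 and 60.8 in H9 shDDX18#1, against 12.7 CPM in HES2 shLuc and 19.4 CPM in H9 shLuc. The hairpins fell in opposite order in the 2 lines, all 4 knockdown libraries were above shLuc, and the log2 fold change was 2.17 ± 0.25 (limma adjusted p = 0.0030).

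EDA2R, the receptor for ectodysplasin A2, was 40.1 CPM in HES2 shDDX18#3, 57.6 in HES2 shDDX18#1, 72.3 in H9 shDDX18#3 and 57.2 in H9 shDDX18#1, against 9.17 CPM in HES2 shLuc and 23.5 CPM in H9 shLuc. The log2 fold change was 1.84 ± 0.25 (limma adjusted p = 0.0049), with no overlap between the groups. TNFRSF10A, which encodes the TRAIL receptor DR4, was 31.5 CPM in HES2 shDDX18#3, 52.8 in HES2 shDDX18#1, 49.9 in H9 shDDX18#3 and 40.8 in H9 shDDX18#1, against 13.6 CPM in HES2 shLuc and 18.3 CPM in H9 shLuc. Its log2 fold change was 1.39 ± 0.24 (limma adjusted p = 0.0105), again with no overlap. TNFRSF10B, which encodes the TRAIL receptor DR5, rose by 0.95 on the log2 scale (limma adjusted p = 0.0129) and was more abundant per kilobase of exon than TNFRSF10A and TNFRSF10C, at 60.4 CPM per kilobase in knockdown cells, against 30.8 in shLuc cells. The TRAIL receptor genes are close paralogs, so reads could be divided between them imperfectly.

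Of the genes grouped as secreted and signaling, GDF15, a stress hormone of the TGF-beta superfamily, had the largest log2 fold change of the 37. GDF15 was 59.6 CPM in HES2 shDDX18#3, 198 in HES2 shDDX18#1, 75.2 in H9 shDDX18#3 and 238 in H9 shDDX18#1, against 6.71 CPM in HES2 shLuc and 18.8 CPM in H9 shLuc. Both shDDX18#1 libraries were far above both shDDX18#3 libraries, which in turn were above shLuc, and the log2 fold change was 3.30 ± 0.56 (limma adjusted p = 0.0101). ZMAT3, an RNA-binding zinc finger protein, was 126 CPM in HES2 shDDX18#3, 122 in HES2 shDDX18#1, 169 in H9 shDDX18#3 and 171 in H9 shDDX18#1, against 21.7 CPM in HES2 shLuc and 46.2 CPM in H9 shLuc. The hairpins gave nearly the same level within each line, and the log2 fold change was 2.16 ± 0.17 (limma adjusted p = 0.0010). PHLDA3, an inhibitor of the kinase AKT, was 124 CPM in HES2 shDDX18#3, 199 in HES2 shDDX18#1, 165 in H9 shDDX18#3 and 274 in H9 shDDX18#1, against 46.3 CPM in HES2 shLuc and 115 CPM in H9 shLuc. The lowest knockdown library was only slightly above the higher shLuc library, and the log2 fold change was 1.31 ± 0.29 (limma adjusted p = 0.0232).

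Among the metabolism and autophagy genes, SPATA18, a factor in mitochondrial quality control, was 23.1 CPM in HES2 shDDX18#3, 26.7 in HES2 shDDX18#1, 28.2 in H9 shDDX18#3 and 43.7 in H9 shDDX18#1, against 3.13 CPM in HES2 shLuc and 4.71 CPM in H9 shLuc. It was the scarcest of the 37 per kilobase of exon in both groups, and rose by 2.65 ± 0.25 on the log2 scale (limma adjusted p = 0.0020). TP53I3, a quinone oxidoreductase linked to oxidative stress, was 117 CPM in HES2 shDDX18#3, 113 in HES2 shDDX18#1, 313 in H9 shDDX18#3 and 223 in H9 shDDX18#1, against 27.7 CPM in HES2 shLuc and 53.4 CPM in H9 shLuc. Its levels were higher in H9 than in HES2 in every arm, and the log2 fold change was 2.15 ± 0.17 (limma adjusted p = 0.0012). TP53INP1, which acts in autophagy and in p53 phosphorylation, was 73.0 CPM in HES2 shDDX18#3, 103 in HES2 shDDX18#1, 58.0 in H9 shDDX18#3 and 91.9 in H9 shDDX18#1, against 18.1 CPM in HES2 shLuc and 29.6 CPM in H9 shLuc. The groups did not overlap, and the log2 fold change was 1.74 ± 0.28 (limma adjusted p = 0.0085).

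The remaining metabolic genes changed less. DRAM1, a lysosomal regulator of autophagy, rose by 1.24 on the log2 scale (limma adjusted p = 0.0093), and TIGAR, a phosphatase that lowers glycolysis, by 1.11 (limma adjusted p = 0.0110). In the annotation 42.6% of the exon bases of TIGAR are shared with another gene model on the same strand. FDXR, the ferredoxin reductase of mitochondrial electron transfer, rose by 0.90 (limma adjusted p = 0.0331) with overlapping groups, and SESN2, a sestrin that restrains mTORC1, by 0.86 (limma adjusted p = 0.0185). SESN1, the other sestrin, was 71.8 CPM in HES2 shDDX18#3, 78.2 in HES2 shDDX18#1, 103 in H9 shDDX18#3 and 71.1 in H9 shDDX18#1, against 32.0 CPM in HES2 shLuc and 68.9 CPM in H9 shLuc. Its 4 knockdown libraries were above both shLuc libraries, by little over H9 shLuc, and the log2 fold change of 0.76 did not pass (limma adjusted p = 0.0653).

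The other apoptosis genes act inside the cell. APAF1, the core of the apoptosome that activates caspase 9, was 67.7 CPM in HES2 shDDX18#3, 83.3 in HES2 shDDX18#1, 95.6 in H9 shDDX18#3 and 78.4 in H9 shDDX18#1, against 34.7 CPM in HES2 shLuc and 42.6 CPM in H9 shLuc. It rose by 1.05 on the log2 scale (limma adjusted p = 0.0077), with no overlap. BBC3, which encodes the BH3-only killer PUMA, was 39.3 CPM in HES2 shDDX18#3, 53.4 in HES2 shDDX18#1, 52.2 in H9 shDDX18#3 and 60.03 in H9 shDDX18#1, against 25.5 CPM in HES2 shLuc and 39.9 CPM in H9 shLuc. Every knockdown library was above the shLuc library of its own line, but HES2 shDDX18#3 was below H9 shLuc, and the log2 fold change of 0.65 did not pass (limma adjusted p = 0.0528). BAX, the pore-forming effector of the mitochondrial membrane, was 186 CPM in HES2 shDDX18#3, 216 in HES2 shDDX18#1, 203 in H9 shDDX18#3 and 202 in H9 shDDX18#1, against 129 CPM in HES2 shLuc and 208 CPM in H9 shLuc. All 5 libraries other than HES2 shLuc were alike, and the log2 fold change was 0.29 (limma adjusted p = 0.281).

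PMAIP1, which encodes the BH3-only protein NOXA, was the single gene of the 37 with a negative log2 fold change, -0.28 (limma adjusted p = 0.387). PMAIP1 was 68.2 CPM in HES2 shDDX18#3, 55.3 in HES2 shDDX18#1, 79.7 in H9 shDDX18#3 and 83.3 in H9 shDDX18#1, against 101 CPM in HES2 shLuc and 73.6 CPM in H9 shLuc. The knockdown libraries were below shLuc in HES2 and slightly above it in H9. The other 3 were not called: CYFIP2, a p53-induced regulator of actin, had a log2 fold change of 0.61 (limma adjusted p = 0.0954), the nuclease gene AEN had 0.34 (limma adjusted p = 0.201), and TRIAP1, whose protein inhibits the apoptosome, had 0.039 (limma adjusted p = 0.919).

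Of the DNA repair genes, POLH, the polymerase that copies past ultraviolet damage, was 27.6 CPM in HES2 shDDX18#3, 44.1 in HES2 shDDX18#1, 56.7 in H9 shDDX18#3 and 53.5 in H9 shDDX18#1, against 10.7 CPM in HES2 shLuc and 25.5 CPM in H9 shLuc. It rose by 1.35 ± 0.23 on the log2 scale (limma adjusted p = 0.0109), and its lowest knockdown library was just above H9 shLuc. RRM2B, the p53-inducible subunit of ribonucleotide reductase, was 74.6 CPM in HES2 shDDX18#3, 108 in HES2 shDDX18#1, 95.3 in H9 shDDX18#3 and 96.4 in H9 shDDX18#1, against 41.1 CPM in HES2 shLuc and 75.9 CPM in H9 shLuc. Each knockdown library was above its own line's shLuc, the groups overlapped by a little, and the log2 fold change of 0.72 did not pass (limma adjusted p = 0.0610). XPC, a damage sensor of nucleotide excision repair, was 90.8 CPM in HES2 shDDX18#3, 105 in HES2 shDDX18#1, 142 in H9 shDDX18#3 and 95.6 in H9 shDDX18#1, against 55.7 CPM in HES2 shLuc and 85.0 CPM in H9 shLuc. The groups did not overlap, yet the log2 fold change of 0.62 did not pass (limma adjusted p = 0.0623), and 23.8% of its exon bases are shared with an antisense gene. DDB2, which works with XPC, had 0.53 (limma adjusted p = 0.106).

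Per kilobase of exon, CDKN1A had the highest mean level of the 37 in knockdown cells, 194 CPM per kilobase, against 22.1 in shLuc cells, where it was rank 8. CCNG1 was the highest in shLuc cells, with 111 CPM per kilobase in knockdown cells and 104 in shLuc cells. BAX, TRIAP1 and PMAIP1 were rank 2, 3 and 4 in shLuc cells. The 4 genes most abundant per length in shLuc cells were all among those that did not pass the test. The summed level of the 37 genes was 3912 CPM in HES2 shDDX18#3, 4974 in HES2 shDDX18#1, 5356 in H9 shDDX18#3 and 5957 in H9 shDDX18#1, against 1773 CPM in HES2 shLuc and 2824 CPM in H9 shLuc. CDKN1A alone made up 20.8% of that sum in H9 shDDX18#1 and 7.04% to 8.31% in the other knockdown libraries, against 1.85% in HES2 shLuc and 3.62% in H9 shLuc.

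The same comparison was read in the genes that act on p53 and in further p53 targets. Of 28 listed p53 regulators 27 had a row. Of these, 2 rose (7.41%), near the 9.6% of all genes, and 6 fell (22.2%), against 6.26% of all genes. Their median log2 fold change was -0.12, against -0.018 over all genes. MDM4, the partner of MDM2 that blocks p53 activity, was 27.6 CPM in HES2 shDDX18#3, 25.4 in HES2 shDDX18#1, 33.1 in H9 shDDX18#3 and 28.6 in H9 shDDX18#1, against 26.6 CPM in HES2 shLuc and 33.2 CPM in H9 shLuc, with a log2 fold change of -0.058 (limma adjusted p = 0.846). CHEK2, a checkpoint kinase that phosphorylates p53, fell by 1.66 on the log2 scale (limma adjusted p = 0.0027). GNL3, which encodes the nucleolar protein nucleostemin, fell by 0.83 (limma adjusted p = 0.0184).

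The 2 regulators that rose were PPP1R13L, an inhibitor of p53, by 0.91 on the log2 scale (limma adjusted p = 0.0142), and CDKN2A, the locus of p16 and ARF. CDKN2A was 7.80 CPM in HES2 shDDX18#3, 11.6 in HES2 shDDX18#1, 6.81 in H9 shDDX18#3 and 18.0 in H9 shDDX18#1, against 0.224 CPM in HES2 shLuc and 2.77 CPM in H9 shLuc. The HES2 shLuc value is a single read, and the log2 fold change was 2.40 (limma adjusted p = 0.0163). Of 50 further p53 targets outside the 37, also listed with earlier results of these data known, 46 were tested. Of these, 22 rose (47.8%) and 1 fell (2.17%), against 9.6% and 6.26% of all genes. Their median log2 fold change was 0.70, against -0.018 over all genes. Among those that rose, IKBIP rose by 1.71 on the log2 scale (limma adjusted p = 0.0021), PLXNB2 by 1.75 (limma adjusted p = 0.0021) and CMBL by 1.63 (limma adjusted p = 0.0023). The gene that fell was PCNA, the replication clamp, by 0.88 (limma adjusted p = 0.0201), named because no other of the 46 was called lower. The remaining 23 did not pass the test in either direction.

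The 2 hairpins were compared directly, since shDDX18#1 left less DDX18 transcript than shDDX18#3 in each line. In the limma test 0 of the 37 genes differed between shDDX18#3 and shDDX18#1, as did 0% of all genes. At an unadjusted p under 0.05, 4 of the 37 differed, all lower with shDDX18#3, which is a smaller share than the 14.3% of all genes. Of these, GDF15 had a log2 difference of -1.68 (limma adjusted p = 0.0824), CDKN1A of -1.01 (limma adjusted p = 0.138), PHLDA3 of -0.70 (limma adjusted p = 0.213) and TP53INP1 of -0.57 (limma adjusted p = 0.336). On reads recovered from the deposited values, edgeR called GDF15 (log2 difference -1.70, adjusted p = 0.0319) among 0.174% of all genes. DESeq2 called GDF15 (-1.73, adjusted p = 2.4e-05) and CDKN1A (-1.02, adjusted p = 0.0147) among 0.636% of all genes. GDF15, CDKN1A and PHLDA3 were also called by limma when either shLuc library was left out, which leaves their log2 differences the same. The remaining shLuc library is then fitted exactly, so both omissions rest on the same 4 knockdown libraries and are not separate support. Such a fit has fewer residual degrees of freedom, and the spread that the shLuc libraries add to the full fit is absent. Many more genes were then called than the 0% of the full fit. With H9 shLuc left out the limma adjusted p was 0.000133 for GDF15, 0.0062 for CDKN1A and 0.0105 for PHLDA3, among 4.66% of all genes. With HES2 shLuc left out it was 0.000102 for GDF15, 0.0067 for CDKN1A and 0.0094 for PHLDA3, among 4.69% of all genes.

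In HES2, 32 of the 37 genes were lower with shDDX18#3 than with shDDX18#1 (86.5%), against 49% of all genes. In H9 this held for 16 of the 37 (43.2%), against 47% of all genes, and the difference between the lines in these counts was not tested. In both lines together, shDDX18#3 was above shDDX18#1 in 3 of the 37, against 33.6% of all genes, and shDDX18#1 was above shDDX18#3 in 14 of the 37, against 29.9% of all genes. The median log2 change over the same line's shLuc was 1.15 in HES2 shDDX18#3, 1.60 in HES2 shDDX18#1, 1.03 in H9 shDDX18#3 and 1.04 in H9 shDDX18#1.

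The effect of knockdown was then compared between the lines. In the interaction test 0 of the 37 genes differed between HES2 and H9, as did 0% of all genes, and neither edgeR (0% of all genes) nor DESeq2 (0.0788% of all genes) called a member. At an unadjusted p under 0.05, 3 of the 37 differed, against 4.43% of all genes. These were PLK2, with 1.47 more log2 change in HES2 than in H9, TRIAP1, with 0.85 more, and PMAIP1, with a difference of -0.85. The limma unadjusted p was 0.0078 for PLK2, 0.0413 for TRIAP1 and 0.0337 for PMAIP1, and the adjusted p was 1.00 for all of them. The mean change was larger in HES2 than in H9 for 33 of the 37 genes, against 51.1% of all genes, with a median difference of 0.56 log2 units, against 0.013 over all genes. The level in HES2 shLuc was below that in H9 shLuc for 36 of the 37, against 49.4% of all genes. All changes within HES2 are measured from that 1 shLuc library, so a lower starting level in HES2 and a larger change there cannot be told apart from the state of that library.

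**Figure D3:**
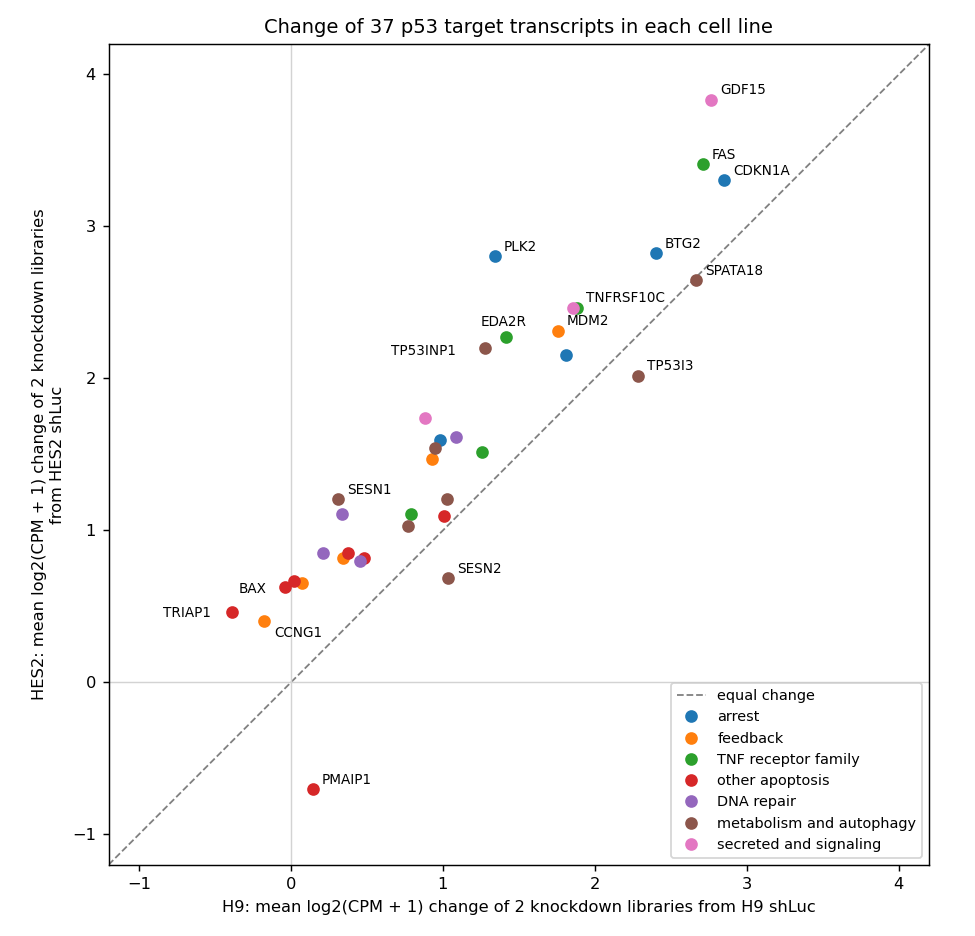
Mean change of the 37 p53 targets over the same line's shLuc in HES2 (vertical axis) against H9 (horizontal axis), both in log2(CPM + 1) units, with 1 point per gene, coloured by role, and a dashed line of equal change. For 33 of the 37 genes the point lies above the line, and PMAIP1 lies farthest below it.

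The shLuc libraries carry much of the statistical weight, with 1 in each line. Without HES2 shLuc, where the change is measured in H9 alone, 7 of the 24 genes that rose still passed (MDM2, FAS, BTG2, ZMAT3, TP53I3, SPATA18 and GADD45A), among 1.06% of all genes called. CDKN1A then missed the threshold, with a log2 fold change of 2.85 (limma adjusted p = 0.0697). Without H9 shLuc, where it is measured in HES2 alone, 14 of the 24 passed, among 2.51% of all genes called. Without H9 shDDX18#1, which had the highest CDKN1A, 29 of the 37 genes passed, against 9.27% of all genes.

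The rise of the p53 targets went with changes in the marker lists. The 22 fibroblast markers took 0.696% of reads in HES2 shDDX18#3, 0.852% in HES2 shDDX18#1, 1.84% in H9 shDDX18#3 and 4.49% in H9 shDDX18#1, against 0.2002% in HES2 shLuc and 0.475% in H9 shLuc. The 37 p53 targets took 0.414%, 0.521%, 0.520% and 0.547% in the same 4 knockdown libraries, against 0.186% in HES2 shLuc and 0.280% in H9 shLuc. The median log2 change of the 22 fibroblast markers over the same line's shLuc was 1.51 in HES2 shDDX18#3, 2.0 in HES2 shDDX18#1, 2.0 in H9 shDDX18#3 and 3.08 in H9 shDDX18#1. Not all of them were higher: 13 of the 22 (59.1%) were above the same line's shLuc in all 4 knockdown libraries, against 25.8% of all genes. THY1 (-0.50) and S100A4 (-0.24) had negative log2 fold changes, which did not pass, and both were below shLuc in both HES2 knockdown libraries. The 4 with the smallest p were ACTA2, COL5A1, COL1A1 and COL3A1, each with a log2 fold change between 3.20 and 4.08 (limma adjusted p of 0.000998 to 0.0023). DCN and FAP were the only ones of the 22 at 0 reads in any library, which were HES2 shDDX18#3 and HES2 shLuc. The part that fibroblast or stem cell transcripts play in the change of the p53 targets was not tested.

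**Figure D4:**
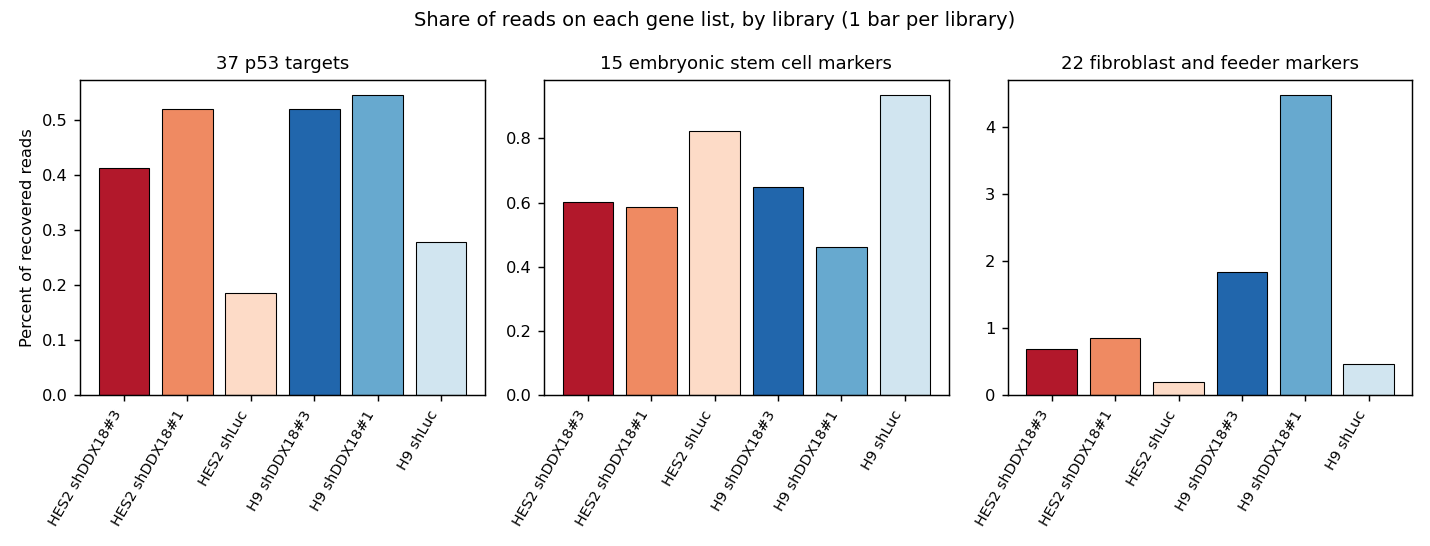
Percent of recovered reads that fell on the 37 p53 targets, the 15 embryonic stem cell markers and the 22 fibroblast and feeder markers, with 1 bar per library and the shLuc library to the right of the knockdown libraries of its line. The p53 targets took 0.414% to 0.547% in knockdown libraries, against 0.186% to 0.280% in shLuc libraries, and the fibroblast markers reached 4.49% in H9 shDDX18#1.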

How the data were processed

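RNA-seq libraries were made from total RNA of 6 samples with a TruSeq kit, per the labels' protocols, which give no strand setting. Per the submitters' processing notes, Bowtie2 2.3.4.3, SAMtools 1.9, HTSeq 0.11.2, edgeR 3.26.8 and build hg19 were used. The authors deposited a normalized signal per gene, read counts scaled to 1000000 of a TMM-adjusted library size. The authors also deposited their own comparison, with a log2 fold change, a log2 mean level, a likelihood ratio score, and per-gene p-values before and after false discovery control, whose design is not given in the sources used here. Low values are whole multiples of 1 read: 100% of values came out whole within 0.001, so reads were recovered for the count tests. No library column was left unmapped.

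A gene had to reach 1 CPM in 2 or more libraries (17768 did, 161 did not). The test ran on log2(CPM + 1), which understates changes of low genes. limma 3.58.1 (R 4.3.3) with an intensity trend set knockdown (4 libraries) against shLuc (2 libraries), blocked by cell line, with 3 residual degrees of freedom. The hairpin and line contrasts had 2. Libraries are paired by cell line, since the same-numbered samples come from the same line. Adjustment was Benjamini-Hochberg over all genes, two-sided, with calls under 0.05. A log2 value of at least 1 counted as 2-fold. Alternatives used other pseudocounts, filters, scalings and variance models, edgeR 4.0.16, DESeq2 1.42.0 and leaving out each library. The test was also run on simulated data in which both hairpins had the same effect, and no result given here rests on that run. CPM of 3 reads, the floor for detection, is 0.671 to 1.23 CPM by library and covers counting error only. Exon lengths and overlaps are from GENCODE on GRCh38, used with no coordinates of the files.

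The members and lists were chosen with earlier results of these data known. Per-library values are given for the 16 members with the largest absolute log2 fold change, the 4 that did not pass with the smallest p, and MDM4. Up to 4 called genes with the smallest p are named from each other list, and 2 genes of these lists are not reported here. Values of APAF1, BAX, PMAIP1, CDKN2A, PCNA, THY1, S100A4, DCN and FAP were added after they were seen.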

Additional observations from a re-analysis of the deposited data

Results flagged for a closer look

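In 4 of the 37 p53 targets the mean log2 change over shLuc had opposite signs in the 2 lines, with both knockdown libraries of each line on the same side. The share of all genes that did so was not counted, so the count says nothing particular to these targets. BAX changed by 0.63 in HES2 and by -0.037 in H9, where it was close to unchanged, at 0.978-fold of shLuc with shDDX18#3 and 0.972-fold with shDDX18#1. TRIAP1 changed by 0.47 in HES2 and by -0.39 in H9, and CCNG1 by 0.41 in HES2 and by -0.18 in H9. PMAIP1 ran the other way, with -0.70 in HES2 and 0.14 in H9. By the interaction test in limma, the difference between HES2 and H9 had an unadjusted p of 0.0567 for BAX, 0.0413 for TRIAP1, 0.102 for CCNG1 and 0.0337 for PMAIP1, and none passed after adjustment over all genes. Each value in HES2 rests on 1 shLuc library and each value in H9 on another.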

How the results depend on the processing

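The count of p53 targets that rose, 24, was 18 with no replicate block (no cell line term; 4.45% of all genes rose), 20 without the intensity trend (4.99%), 25 with a filter of 5 CPM (12.5%), 24 in edgeR (9.66%) and 27 in DESeq2 (10.2%), where 9.6% of all genes rose in the reported fit. Leaving out 1 library gave 7 (without HES2 shLuc; 1.06%) to 29 (without H9 shDDX18#1; 9.27%), and 14 without H9 shLuc (2.51%). No alternative gave a p53 target that fell. Between the hairpins, where limma called 0 members, edgeR called 1 and DESeq2 called 2, and leaving out 1 library gave 0 to 3. The line comparison gave 0 in every alternative that could be fitted; it could not be fitted without either shLuc library. No paired version of it exists, since cell line is a term of that model. Without HES2 shLuc the log2 fold change became -0.037 for BAX, -0.39 for TRIAP1, -0.18 for CCNG1 and 0.14 for PMAIP1, and without HES2 shDDX18#1 it became -0.088 for TRIAP1. The other 33 members kept their direction in all alternatives run. Without HES2 shLuc the change rests on H9 alone; otherwise the cause was not tested. No scaling moved the median of all genes beyond -0.087. Each hairpin has 1 library per line, and 1 read is worth 0.224 to 0.408 CPM, which limits the precision of low levels such as FAS in shLuc.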
